A study of Homo sapiens with 5 samples.

Results

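Bidirectional promoters are stretches of DNA from which a pair of neighbouring genes is transcribed outwards, one gene on the minus strand and the other on the plus strand. Hotspots of open chromatin at such promoters were taken from a list of MCF10A hotspots as those that overlap the 1000 bp on either side of transcription start sites (TSSs) of at least 2 different protein-coding genes, where the TSS on the minus strand lies at or upstream of the TSS on the plus strand and at most 1000 bp from it. Genes and TSSs were those of GENCODE release 44 on hg38, and chromosomes X and Y were left out. The rule found 1451 hotspots among 181723 in the whole list, of which 174422 were autosomal. A further 17520 autosomal hotspots overlapped the window of a protein-coding TSS without such a pair and are called other TSS hotspots, and 155451 lay away from a TSS. The members were thus 7.65% of the 18971 autosomal hotspots at a TSS.

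MCF10A is an immortalised, non-tumorigenic line of human mammary epithelial cells, and the labels describe the cells as healthy and the treatment as baseline. The cells grew in medium with 5% horse serum, 20 ng/ml EGF, 0.5 µg/ml hydrocortisone, 100 ng/ml cholera toxin and 10 µg/ml insulin, which were present in every library. ATAC-seq, in which the transposase Tn5 inserts sequencing adapters into accessible DNA, was performed on 5 libraries labelled as replicates of this one cell line. The authors pooled their alignments before calling hotspots, so each hotspot has a position, a width and a score, with no value per library, and no difference between classes of hotspots was tested. Intervals below are 95% intervals over hotspots, genes or pairs (Wilson for shares, order statistics for medians). They cover counting error only and say nothing of the spread between cultures. Promoter hotspots were present at 6 of 8 basal epithelial markers (KRT5, EGFR, LAMA3, LAMB3, CDH3 and ITGA6) and absent at 2 (KRT14 and TP63). That share is near the 75.8% of all autosomal protein-coding genes with one and does not identify the cells. None of 6 marker genes of hepatocytes, lymphocytes and neurons had one. DCX among them lies on chromosome X, which was left out of the members, so its absence may carry no information.

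Most mammalian promoters of widely used genes lie in CpG islands, lack a TATA box and are bound by factors such as ETS proteins, NRF1, NFY, SP/KLF and YY1. A divergent arrangement places both TSSs next to a shared nucleosome-depleted stretch, and genes for DNA repair, mitochondrial function and translation are known to occur in such pairs. Histone H2A and H2B genes form a special set of divergent pairs with TATA boxes and CCAAT boxes, the latter bound by NFY.

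The DNA between the TSSs of 5 pairs known from textbooks is shown first because it carries the motifs counted below. Each stretch lies between the closest TSSs, holds no annotated exon and is written 5′ to 3′ on the plus strand of hg38, so the minus-strand gene of each name starts to its left and the plus-strand gene to its right. Capitals mark matches, on either strand, to CCGGAAGT (ETS), CGCATGCG (NRF1), GGGGCGGG (SP/KLF) and TGACGTCA (CRE). The E-box was searched with the letters CACGTG. NFY was searched as the CCAAT box followed by C or G and then by A or G. For the TATA box the letters were TATAAA.
ZAR1L/BRCA2 (chr13:32315364-32315504): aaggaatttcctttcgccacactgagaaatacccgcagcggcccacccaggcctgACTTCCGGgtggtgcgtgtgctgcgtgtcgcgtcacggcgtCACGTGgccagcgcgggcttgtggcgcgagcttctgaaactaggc
U2AF1L4/PSENEN (chr19:35745446-35745599): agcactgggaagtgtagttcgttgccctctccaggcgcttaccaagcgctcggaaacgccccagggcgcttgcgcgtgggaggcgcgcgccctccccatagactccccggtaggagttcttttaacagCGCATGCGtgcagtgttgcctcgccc
PPAT/PAICS (chr4:56435616-56435740): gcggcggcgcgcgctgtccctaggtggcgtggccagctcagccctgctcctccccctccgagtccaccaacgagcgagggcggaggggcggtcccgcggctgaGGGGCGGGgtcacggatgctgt
SARS2/MRPS12 (chr19:38930764-38930943): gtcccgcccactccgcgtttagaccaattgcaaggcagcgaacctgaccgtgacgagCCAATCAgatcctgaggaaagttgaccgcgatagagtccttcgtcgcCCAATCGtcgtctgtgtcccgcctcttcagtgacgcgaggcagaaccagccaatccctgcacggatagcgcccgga
COL4A1/COL4A2 (chr13:110307158-110307257): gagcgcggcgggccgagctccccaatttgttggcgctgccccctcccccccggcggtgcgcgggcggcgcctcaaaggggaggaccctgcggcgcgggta
The stretch beside BRCA2, which encodes a protein of homologous recombination, held 1 ETS match and 1 E-box. The stretch between U2AF1L4 and PSENEN held 1 NRF1 match and that between the purine synthesis genes PPAT and PAICS held 1 SP/KLF match. SARS2 and MRPS12, which encode a mitochondrial seryl-tRNA synthetase and a mitochondrial ribosomal protein, were separated by 180 bases with 2 NFY matches. The 100 bases between COL4A1 and COL4A2, which encode chains of basement membrane collagen, held no match to any motif searched, and the hotspot there had a score of 16.4.

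The annotation held 1423 divergent pairs, made of 2752 of the 18773 autosomal protein-coding genes. A pair can hold several divergent combinations of transcript TSSs, 13462 in all. The closest combination was used for each distance and for the cover of TSSs. The median of this smallest distance was 122 bp (115 to 128). In 679 of the 1423 pairs (47.7%, 45.1 to 50.3) the annotated genes overlap each other. A hotspot was shared by 1341 pairs (94.2%, 92.9 to 95.3). Of these, 1172 pairs had 1 shared hotspot and 169 had several. The strongest hotspot covered both TSSs themselves in 1185 of the 1341 pairs (88.4%, 86.5 to 90.0), exactly 1 TSS in 68 and neither TSS in 88. Most hotspots, 1384 of 1451, belonged to a single pair, 63 belonged to 2 pairs and 4 to 3 pairs, so pairs and hotspots are not independent units.

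Hotspots at bidirectional promoters had a higher median score than the other TSS hotspots. Their scores ran from 4.37 to 83.0 with a median of 24.6 (23.3 to 25.5), and the middle 50% lay between 15.1 and 34.6. The median was 11.9 (11.6 to 12.3) at the other TSS hotspots and 5.61 away from TSSs. The highest scores lay outside the members, at 349 among the other TSS hotspots and 912 away from TSSs. The score is the number that the calling program wrote for each hotspot, and the sources do not state what it is relative to, so it serves here only to order hotspots within the list. The highest 10.0% of autosomal scores, a share set by construction, lay above 16.1. They included 1044 of 1451 members (72.0%, 69.6 to 74.2), 40.6% of the other TSS hotspots (39.9 to 41.4) and 5.97% of those away from a TSS.

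Members were also wider, with a median of 1007 bp (979 to 1048) against 639 bp (632 to 645) at the other TSS hotspots and 276 bp away from TSSs. The rule itself favours wide hotspots, because a hotspot has to reach the windows of a pair of TSSs, and score and width moved together. The comparison class also holds many weak hotspots near alternative TSSs. When a hotspot had to cover the TSSs themselves, 1181 members had a median score of 27.4 (26.7 to 28.5) and the other hotspots on a TSS a median of 19.9 (19.5 to 20.2), with widths of 1154 and 912 bp.

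**Figure D1:**
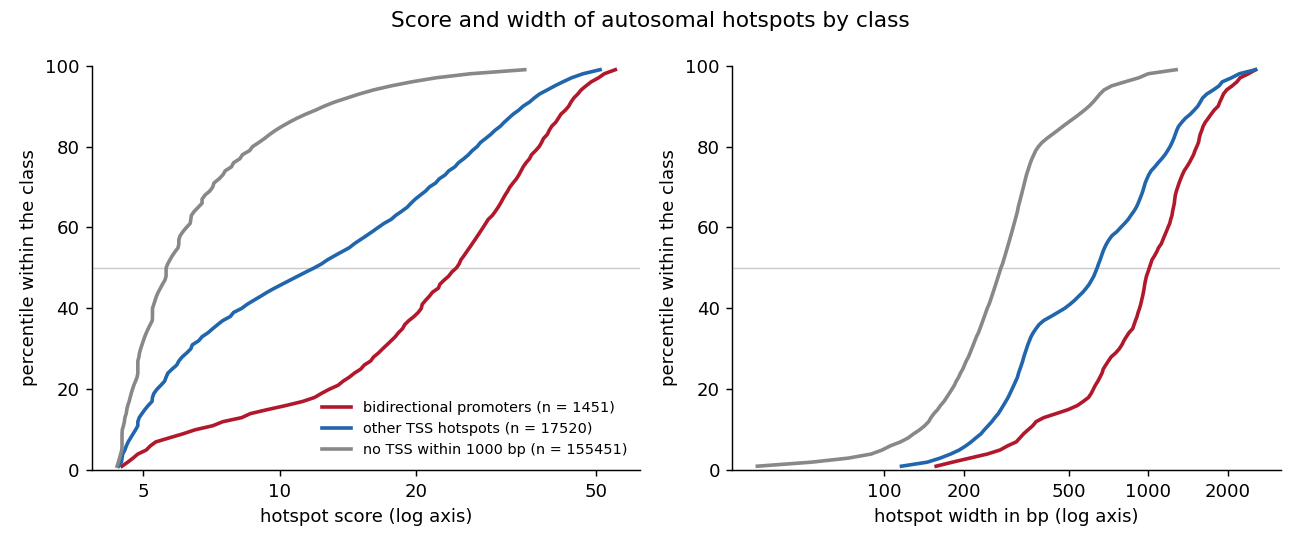
Percentile within each class (vertical axis) against hotspot score (left, log axis) and width in bp (right, log axis) for autosomal hotspots at bidirectional promoters, other TSS hotspots and hotspots away from a TSS. The curve of the bidirectional promoters lies to the right of the others over most of its range, with medians of 24.6, 11.9 and 5.61 for score and 1007, 639 and 276 bp for width.

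The kind of promoter in the comparison class mattered for the size of this gap. Hotspots at 1 coding gene alone had a median score of 10.2 (9.93 to 10.5, n = 14532) and a median width of 598 bp. Hotspots where a coding gene lay divergent to a long noncoding RNA gene reached 21.0 (20.3 to 21.8, n = 2481) and 960 bp, below the members but far above the hotspots at 1 coding gene alone. Hotspots at 2 or more coding genes without a divergent pair lay between these, at 17.3 (16.0 to 19.1, n = 507) and 818 bp.

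Within classes of equal width the gap was smaller. Among hotspots of 842 to 1235 bp, members had a median of 25.9 (24.8 to 27.3) and other TSS hotspots of 22.9 (22.2 to 23.3). Among those of 1236 bp or more the medians were 33.3 (31.9 to 34.2) and 28.2 (27.8 to 28.9). The narrowest class, up to 310 bp, showed no gap in this direction, with 4.90 (4.80 to 5.14) at 100 members and 5.06 (5.00 to 5.11) at other TSS hotspots.

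The members lay in CpG-rich DNA. In the 1000 bp around the hotspot midpoint the median number of CpG dinucleotides was 73 (72 to 75), against 60 (60 to 61) at other TSS hotspots and 12 away from TSSs, and GC content was 62.7% against 61.1% and 47.4%. Of the members, 51 lay in the lowest CpG class (1 to 22 CpG), where their median score of 5.24 (4.86 to 5.68) was not above the 5.78 (5.69 to 5.90) of other TSS hotspots. In the class of 51 to 73 CpG, which held 498 members, the medians were 25.4 (24.0 to 27.0) and 18.2 (17.4 to 18.8). In the richest class, 98 CpG or more, they were 27.2 (25.8 to 29.3) and 22.7 (22.1 to 23.3).

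Counted by gene, which removes the weight of secondary hotspots, 2653 of 2752 genes in divergent pairs had a promoter hotspot (96.4%, 95.6 to 97.0). The share was 72.3% (71.6 to 73.0) among the 16021 genes outside pairs and 75.8% among all autosomal protein-coding genes. The strongest promoter hotspot of a gene had a median score of 27.0 (26.3 to 27.7) for genes in pairs and 19.5 (19.1 to 19.8) for genes outside. The genes of a pair often share a hotspot and are not independent units, so the intervals for genes in pairs are too narrow. Counted by gene, the gap was widest in the class with the fewest CpG. Of genes with at most 21 CpG in 1000 bp, 105 of 135 in pairs had a hotspot (77.8%, 70.1 to 84.0), against 34.5% (32.9 to 36.0) outside. The median scores were 19.5 and 6.70. CpG were counted once per gene, while the strongest hotspot could lie at any of its TSSs. These scores need not come from CpG-poor DNA, where the 51 members had a median of 5.24. Among genes with 100 CpG or more the shares were 98.2% and 89.7%, and the scores 26.3 (25.5 to 28.4) and 23.3 (22.6 to 23.7).

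Averaged over pairs, cover around bidirectional promoters was nearly symmetric. The sides are set by the strands of the reference, so this average does not show that single pairs are symmetric. The hotspot of PRKDC/MCM4 reached 339 bp into PRKDC and 1567 bp into MCM4. That of HSPD1/HSPE1 reached 1337 bp into HSPD1 and 409 bp into HSPE1. At the midpoint between TSSs, 87.6% of the 1423 pairs lay in a hotspot, which fell to 53.8% at 500 bp on the side of the minus-strand gene and 52.1% at 500 bp on the side of the plus-strand gene. At the canonical TSS of genes outside pairs 57.4% lay in a hotspot, with 23.6% at 500 bp upstream and 33.1% at 500 bp downstream. Hotspots that covered both TSSs of a pair reached a median of 490 bp (470 to 507) into the minus-strand gene and 460 bp (436 to 477) into the plus-strand gene. Hotspots that covered the canonical TSS of a gene outside pairs reached 409 bp (402 to 415) upstream and 505 bp (496 to 513) downstream, so they extended further into the gene than away from it.

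**Figure D2:**
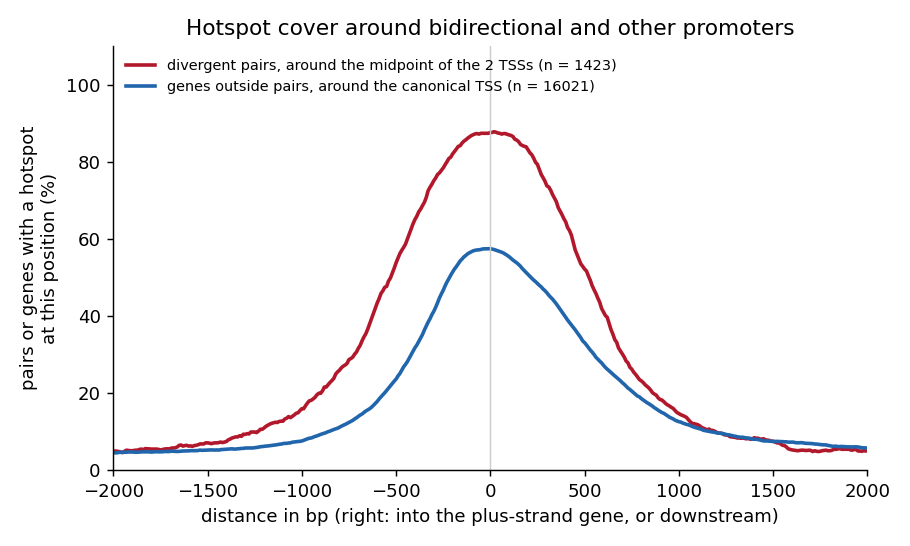
Percent of divergent pairs (n = 1423) and of genes outside pairs (n = 16021) that lie in a hotspot (vertical axis) at each distance in bp from the midpoint of the pair or from the canonical TSS (horizontal axis). The curve of the pairs peaks near 87.8% and is nearly symmetric as an average, with sides set by the strands of the reference. The curve of the other genes, turned by the direction of transcription, peaks near 57.4% and leans to the downstream side.

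The score of the strongest hotspot was higher at pairs whose closest TSSs lay 201 to 300 bp apart than at pairs with TSSs closer together, and its width moved with it. Its median was 21.6 (19.9 to 24.6) at 266 pairs with TSSs at most 50 bp apart, 23.5 (21.5 to 24.8) at 51 to 100 bp, which overlap in their intervals, 28.5 (26.3 to 29.7) at 101 to 200 bp and 31.9 (30.4 to 35.1) at 201 to 300 bp. At 301 to 500 bp it was 32.9 (29.3 to 34.6), with an interval that overlaps those of both classes before, and at 501 to 1000 bp it was 27.0 (21.9 to 31.4). The median width of that hotspot ran from 991 bp in the nearest class to 1255 bp at 201 to 300 bp and 1269.5 bp in both classes beyond, and the part of width in the scores was not tested. Pairs more than 500 bp apart shared a hotspot less often, in 100 of 122 cases (82.0%, 74.2 to 87.8), against 94.4% to 96.7% in the classes up to 500 bp. Where they did, the strongest hotspot covered both TSSs in 55.0% (45.2 to 64.4). That share was 86.0% to 93.2% in the nearer classes. The rule itself lowers both shares with distance, since the windows of TSSs farther apart overlap less and a wider hotspot is needed to cover both.

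**Figure D3:**
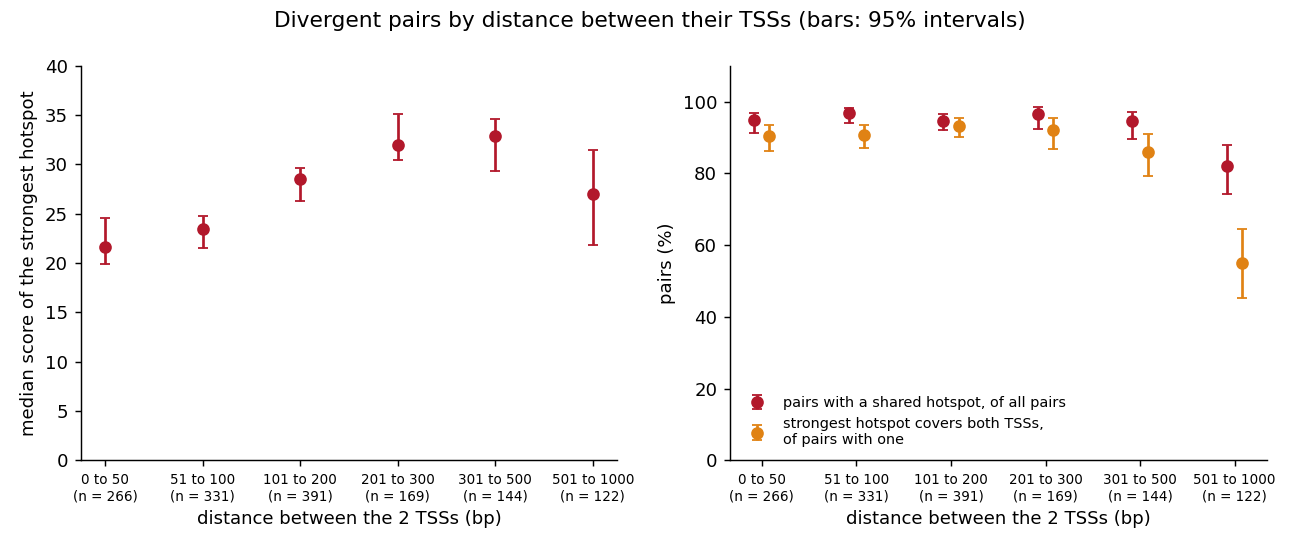
Left, median score of the strongest hotspot (points, with 95% intervals) for pairs grouped by the distance in bp between their closest TSSs. Right, percent of pairs with a shared hotspot and, of those, percent whose strongest hotspot covers both TSSs. Median scores run from 21.6 in the nearest class to 32.9 at 301 to 500 bp, and both shares are lowest at 501 to 1000 bp, at 82.0% and 55.0%.

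The limit of 1000 bp cuts through a continuous range. Just inside it, PRADC1/CCT7 at 997 bp shared a hotspot with a score of 48.9, SMIM7/TMEM38A at 995 bp one of 46.0 and PSMB1/TBP, also at 995 bp, a pair of hotspots of which the stronger had 34.6. Just outside, USH1G/OTOP2 at 1018 bp shared none and ENSG00000268790/TMEM38A at 1035 bp shared the same hotspot as SMIM7/TMEM38A.

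Motifs were counted in the central 300 bp of each hotspot. ETS letters (CCGGAAGT) were found in 133 members (9.17%, 7.79 to 10.8) and in 3.12% (2.87 to 3.38) of other TSS hotspots. ETS factors, among them GABPA, are activators of many housekeeping genes. NRF1, a regulator of nuclear genes for mitochondrial proteins, had matches in 3.65% (2.80 to 4.75) of members and 1.56% (1.39 to 1.75) of other TSS hotspots, and YY1 (ATGGCGGC) in 7.24% (6.01 to 8.69) and 3.79% (3.52 to 4.08). NFY letters lay in 18.3% (16.4 to 20.4) and 11.5% (11.04 to 11.98), and SP/KLF letters in 29.8% (27.5 to 32.2) and 22.7% (22.0 to 23.3). For E-box the shares were 8.61% (7.28 to 10.2) and 6.55% (6.19 to 6.92), and for E2F (TTTGGCGC or TTTCCCGC) 3.10% (2.33 to 4.12) and 2.12% (1.91 to 2.34). The E2F intervals overlap slightly. Among all autosomal hotspots, in windows of the same length, the shares were 0.612% for ETS, 0.276% for NRF1, 1.08% for YY1, 9.17% for NFY, 4.05% for SP/KLF, 4.81% for E-box and 0.607% for E2F. A match is a run of letters and shows no binding, and the letters are a strict form of each motif.

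The letters of AP-1 (TGACTCA), the Fos and Jun motif common at enhancers, ran the other way. They lay in 29 members (2.00%, 1.40 to 2.86), in 5.76% (5.43 to 6.12) of other TSS hotspots, in 11.98% of hotspots away from TSSs and in 11.3% of all autosomal hotspots. The 29 members with an AP-1 match had a median score of 8.35 and a median width of 399 bp, against 24.8 and 1014.5 bp for the members without. TEAD letters (ACATTCCA) were in 4 members (0.276%, 0.107 to 0.707), 0.691% (0.578 to 0.825) of other TSS hotspots and 1.82% of all autosomal hotspots. The TEAD intervals of members and other TSS hotspots overlap. ZNF143 (CCAGNATGC) and CRE shares also had overlapping intervals, with 2.07% (1.45 to 2.94) and 1.72% (1.54 to 1.92) for the former and 1.65% (1.11 to 2.45) and 1.26% (1.11 to 1.44) for the latter, where all autosomal hotspots had 1.57% and 0.346%.

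Base composition moved with these shares. Within the class of 51 to 73 CpG, ETS letters lay in 13.1% of members and 6.85% of other TSS hotspots, and in the richest class in 5.81% and 2.52%. In the class of 51 to 73 CpG the shares lay closer for YY1 (7.23% and 6.09%). They were about equal there for E-box (7.63% and 7.64%) and E2F (3.61% and 3.41%). NFY (23.7% and 15.2%) and NRF1 (3.82% and 2.50%) kept a gap in that class. At 74 to 97 CpG the shares were 7.23% and 5.13% for YY1, 9.64% and 7.53% for E-box and 3.86% and 2.86% for E2F. In the richest class they were 10.97% and 6.29%, 10.3% and 5.68%, and 2.90% and 2.73%. In the classes up to 50 CpG members did not have the higher E-box or E2F share. SP/KLF letters, which hold a CpG, were about as frequent in both groups within a class, with 34.9% and 34.7% at 74 to 97 CpG and 23.7% and 25.8% at 51 to 73 CpG. AP-1 letters lay in 15.7% of the 51 members of the lowest CpG class and in 15.04% of other TSS hotspots there. Among hotspots of 842 to 1235 bp the ETS shares were 12.6% and 4.74%, and the AP-1 shares 1.37% and 2.92%.

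Among the members themselves, the 266 with NFY letters had a median score of 33.1 against 22.4 for the 1185 without, at similar widths of 1025 and 994 bp. SP/KLF letters went with 28.5 against 22.1, and ETS letters with 23.7 against 24.8.

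**Figure D4:**
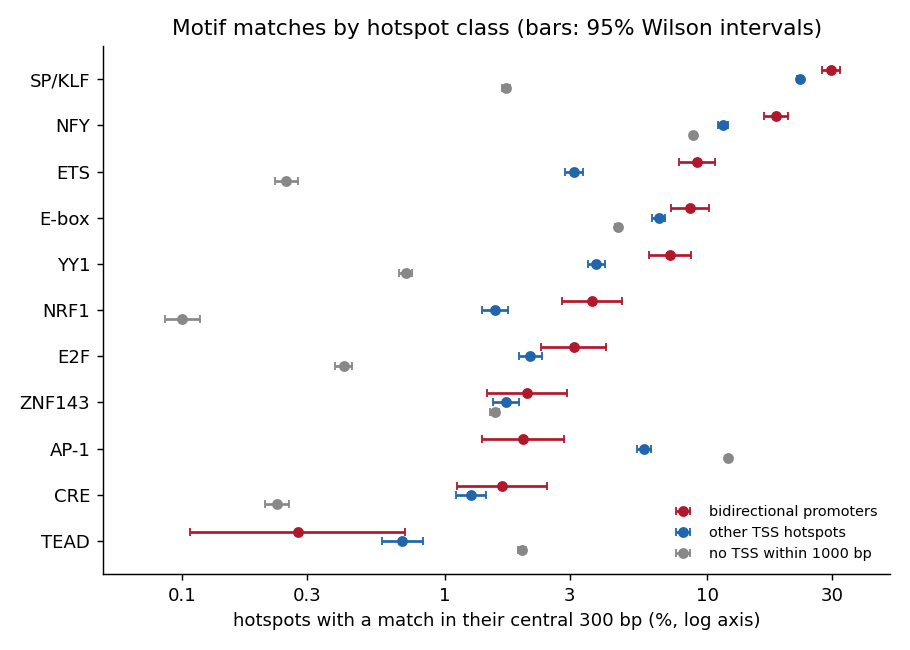
Percent of hotspots with a motif match in their central 300 bp (horizontal log axis, with 95% Wilson intervals) for each motif and class. Members lie to the right of other TSS hotspots for ETS (9.17% and 3.12%), NRF1, YY1, NFY and SP/KLF and to the left for AP-1 (2.00% and 5.76%).

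A TATA box, read as TATAAA on the gene's strand between 45 and 15 bases upstream of the canonical TSS, was rare at genes in pairs. It was present at 34 of 2752 genes (1.24%, 0.885 to 1.72), against 4.58% (4.27 to 4.92) of genes outside pairs. Of the 34 genes, 15 were replication-dependent histone genes. All 5 pairs with TATAAA on both sides were histone pairs, namely H2BC11/H2AC11, H2BC12/H2AC12, H2BC13/H2AC13, H2BC21/H2AC20 and H2AC1/H2BC1.

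Histones of the replication-dependent set package newly made DNA and are transcribed in S phase. Of 69 such genes, 26 lay in divergent pairs (37.7%, against 14.7% of all autosomal protein-coding genes). All 26 lay in the 13 pairs made of a pair of histone genes. A hotspot was shared by 12 of these pairs (94.2% of all divergent pairs shared one). The strongest covered both TSSs in 11, as it did in 88.4% of all pairs with a shared hotspot. H2BC13/H2AC13 had the highest score, 44.7, followed by H2BC11/H2AC11 with 37.2 and H2AC14/H2BC14 with 31.5. The other pairs of H2A and H2B genes with a hotspot lay between 19.5, at H2BC4/H2AC6, and 31.2, at H2BC12/H2AC12. H3C7/H2BC9, with TSSs 979 bp apart, had a hotspot of 12.4 that covered 1 TSS. H2AC1/H2BC1, the testis-specific pair, had none.

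The stretch between the TSSs of the pair with the highest score and of the testis-specific pair are shown together because they hold the same kinds of match.
H2BC13/H2AC13 (chr6:27807930-27808172): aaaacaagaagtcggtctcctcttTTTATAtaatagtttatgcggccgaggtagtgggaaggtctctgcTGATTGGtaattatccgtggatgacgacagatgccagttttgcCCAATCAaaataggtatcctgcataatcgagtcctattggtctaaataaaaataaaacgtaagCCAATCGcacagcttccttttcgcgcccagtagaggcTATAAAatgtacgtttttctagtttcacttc
H2AC1/H2BC1 (chr6:25726563-25726776): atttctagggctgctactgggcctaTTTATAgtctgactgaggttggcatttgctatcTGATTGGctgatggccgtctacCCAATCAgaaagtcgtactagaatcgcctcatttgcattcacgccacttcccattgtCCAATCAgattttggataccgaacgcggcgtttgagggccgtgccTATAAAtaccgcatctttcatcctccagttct
Both stretches held 5 matches, of the NFY and TATA letters, with TATAAA facing each gene. GC content was 40.7% in the first and 47.7% in the second, both below the 63.8% of the ZAR1L/BRCA2 stretch. The first lay under a hotspot of 1735 bp and the second under none.

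Textbook pairs were looked up by name. Of 29 such pairs, 28 were divergent within 1000 bp in the annotation (BRIP1/INTS2 was not). All 28 shared a hotspot, where 94.2% of all pairs did. The strongest covered both TSSs in 25 (89.3%), against 88.4% of all pairs with a shared hotspot, so both shares lie near those of all pairs. The textbook pairs had a median score of 31.1, against 26.3 for all pairs with a hotspot, and ran from 9.34 to 58.3.

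PDCD10/SERPINI1, a scaffold protein of signalling complexes and the protease inhibitor neuroserpin, had the highest score of the textbook pairs at 58.3 with a width of 1920 bp (chr3:167734090-167736009). NPAT/ATM, a coactivator of histone genes and the kinase that responds to double-strand breaks, had 47.0 over 1007 bp. HSPD1/HSPE1, the mitochondrial chaperonins Hsp60 and Hsp10, had 44.4 over 1852 bp and ATP5PF/GABPA, a subunit of ATP synthase and an ETS factor, 44.3 over 2369 bp. PPAT/PAICS, enzymes of purine synthesis, had 41.7, and PRKDC/MCM4, a repair kinase and a replicative helicase subunit with TSSs 7 bp apart, 40.8.

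The middle of the range held SARS2/MRPS12 (39.5), PREPL/CAMKMT (35.7), PALB2/DCTN5 (33.1), HARS1/HARS2 (32.5), TK1/AFMID (31.7), TRMT2A/RANBP1 (30.4), U2AF1L4/PSENEN (26.5) and PURG/WRN (24.8). These include repair genes such as PALB2 and WRN, the thymidine kinase gene TK1 and synthetases that charge tRNA. COL4A4/COL4A3 had 21.0 and COL4A1/COL4A2 16.4, both pairs of chains of the type IV collagen of basement membranes. ACACA/TADA2A had 16.9 and SIRT3/PSMD13 16.6.

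The lowest textbook pairs were ZAR1L/BRCA2 (14.6), SURF1/SURF2 (13.4), TMEM258/FEN1 (11.4), TAP1/PSMB9 (10.1) and TEX14/RAD51C (9.34). TAP1 and PSMB9 serve antigen processing and are induced by interferon, and their hotspot reached 41 bp into PSMB9. The hotspot of TEX14/RAD51C was 415 bp wide and covered the TSS of RAD51C, a recombination gene, and not that of TEX14, a germ cell gene 518 bp away.

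PSMB1/TBP, with TSSs 995 bp apart, had separate hotspots of 34.6 over the TSS of the TATA-binding protein gene and 15.4 over that of the proteasome gene.

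The hotspots with the highest scores of all members were FAM72A/SRGAP2 (83.0) and FAM72B/SRGAP2C (81.8), which are recent duplicates. In 25-base words, 76.3% and 63.2% of their sequence was shared, so reads may be split or misplaced between the copies and their scores are uncertain. The same holds for SRGAP2B/FAM72D (38.2) and for the copies of BOLA2 and SLX1 (4.93 and 6.27), 5 members in all. Without these copies KCTD9/CDCA2 came first with 70.7, CDCA2 being a mitotic regulator of phosphatase PP1. Then came TMEM60/PHTF2 (64.3), TPMT/KDM1B (61.3), RPS6KA5/DGLUCY (59.97), SETD3/CCNK (59.4), FHIP1B/CNGA4 (59.4), PDCD10/SERPINI1 (58.3) and PRKRA/PJVK (57.1). TPMT methylates thiopurine drugs, KDM1B demethylates histone H3, RPS6KA5 is a stress-activated kinase and CCNK is the cyclin of CDK12 in transcription elongation. CNGA4, an olfactory channel subunit, and PJVK, a hearing gene, are known for narrow use and lay next to FHIP1B and PRKRA.

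The lowest members were narrow, and most lay at pairs with a second hotspot. PCSK7/RNF214 (4.37, 183 bp), AK6/RAD17 and TAF9/RAD17 (1 hotspot, 4.37, 164 bp), ZFHX2/THTPA (4.39, 373 bp) and ANGEL1/LRRC74A (4.40, 293 bp) each had a second hotspot. ATP5MJ/TDRD9 had only its hotspot of 4.40 (173 bp). The widest members lay at PPP1R13L/POLR1G (4708 bp, score 32.6), GPR108/TRIP10 (3505 bp, 34.0), COQ8B/ITPKC (3457 bp, 29.2), VPS9D1/ZNF276 (3098 bp, 19.7) and DDX5/CEP95 (3067 bp, 47.0), of which the first 3 are on chromosome 19.

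Genes of DNA repair were often in divergent pairs, a property of the annotation that the hotspots did not set. Of 89 listed, 40 were in pairs (44.9%, against 14.7% of all autosomal protein-coding genes), and 38 of the 40 shared a hotspot (a share near the 94.3% of all genes in pairs), with a median score of 31.5 against 26.6 for all genes in pairs with one. RPA3, a subunit of the single-strand binding protein, had 55.2 with UMAD1. At the low end FEN1 had 11.4 and RAD51C 9.34. The pairs RAD51D/FNDC8 and RHBDF1/MPG shared none, although RAD51D and the glycosylase gene MPG had promoter hotspots of 11.5 and 9.11 that did not reach the windows of both TSSs. All 49 repair genes outside pairs had a promoter hotspot (72.3% of all genes outside pairs did), with a median of 26.3.

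Of 37 genes of DNA replication, 14 were in pairs (37.8%, against 14.7% of all genes). All 14 shared a hotspot (94.3% of all genes in pairs did), with a median of 34.3. ORC6 of the origin recognition complex had 44.7 with VPS35 and GINS1 43.8 with ABHD12, while ORC1 had 20.7 and the primase gene PRIM1 15.01. The 23 replication genes outside pairs all had a hotspot as well (72.3% of all genes outside pairs did), at a median of 26.6.

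The lists of ribosomal proteins, the respiratory chain and tRNA synthetases were counted in the same way. Their genes in pairs shared a hotspot about as often as all genes in pairs (94.3%). Of all autosomal protein-coding genes 14.7% were in pairs. Mitochondrial ribosomal proteins (29 of 78 in pairs, 37.2%) all shared a hotspot, with a median of 23.7 and a range from MRPL50 with ZNF189 (54.9) and MRPS12 (39.5) to the pair MRPL46/MRPS11 (10.1). Cytosolic ribosomal proteins (18 of 73, 24.7%) also all shared one, with a median of 23.4, from RPL15 (43.2) and RPL18 (34.9) to RPL4 (10.5) and RPL35A (8.62). Of the genes of oxidative phosphorylation 28 of 84 were in pairs (33.3%) and 27 shared a hotspot, with a median of 23.5. UQCRQ of complex III had 47.4 and ATP5PF 44.3, while NDUFA13 had 8.49 and ATP5MJ 4.40. Aminoacyl-tRNA synthetases (12 of 35, 34.3%) shared one in 11 cases, with a median of 32.5. EARS2 had 39.99 and SARS2 39.5, RARS2 had 27.4, and MARS1 with ARHGAP9 shared none at their divergent TSSs. The strongest promoter hotspots of MARS1 and ARHGAP9 had the same score, 15.3, and may be a single hotspot near other TSSs.

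The proteasome list, matched by symbol, also takes assembly factors and PSME3IP1, which is no subunit. Of 49 genes 14 were in pairs (28.6%, against 14.7% of all genes). All 14 shared a hotspot (94.3% of all genes in pairs did), with a median of 19.3, the lowest of the lists with more than 5 genes in pairs. PSME3IP1 had 43.96 and PSMB1 34.6, PSMC2 had 13.9 and PSMA1 5.61. Among 35 proteasome genes outside pairs the median was 26.2.

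Genes of cilia were in pairs in 21 of 96 cases (21.9%, against 14.7% of all genes). All 21 shared a hotspot (94.3% of all genes in pairs did), with a median of 30.1. IFT25 had 51.5 with LRRC42 and IFT20 48.5 with TNFAIP1, both of intraflagellar transport. CFAP52 had 7.49 and CFAP276 7.30. Of the 75 cilium genes outside pairs 56 had a promoter hotspot (74.7%, against 72.3% of all genes outside pairs), at a median of 16.7. DNAI1, a dynein of motile cilia, had 45.4 in its pair with FAM219A.

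Zinc finger genes with a number as name were in pairs in 60 of 466 cases (12.9%), near the 14.7% of all genes. Of the 60, 55 shared a hotspot (94.3% of all genes in pairs did), with a median of 26.3. ZNF277 and ZNF654 had 55.2 each, ZNF568 with ZNF829 had 7.49 and ZNF836 7.11, and ZNF345, ZNF382, ZNF529, ZNF574 and ZNF790 shared none. Solute carriers were in pairs in 35 of 359 cases (9.75%), and 31 of the 35 shared a hotspot (94.3% of all genes in pairs did). Their median was 24.4, from SLC25A32 (51.1) and SLC25A40 (49.6) to SLC16A6 (7.49) and SLC26A11 (5.34). SLC12A1, a kidney transporter, SLC1A6, SLC30A3 and SLC51A shared none.

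Olfactory receptors and keratins were nearly absent from the pairs. Of 390 olfactory receptor genes 2 were in a divergent pair (0.513%, against 14.7% of all genes), OR11A1/OR2H1, which shared no hotspot. None of 55 keratin genes was in a pair, while 18 of them had a promoter hotspot (32.7%, against 72.3% of all genes outside pairs). Of 42 collagen genes 5 were in pairs (11.9%, against 14.7% of all genes). All 5 shared a hotspot (94.3% of all genes in pairs did), namely both pairs of COL4A genes and COL19A1 with LMBRD1 (4.48).

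**Figure D5:**
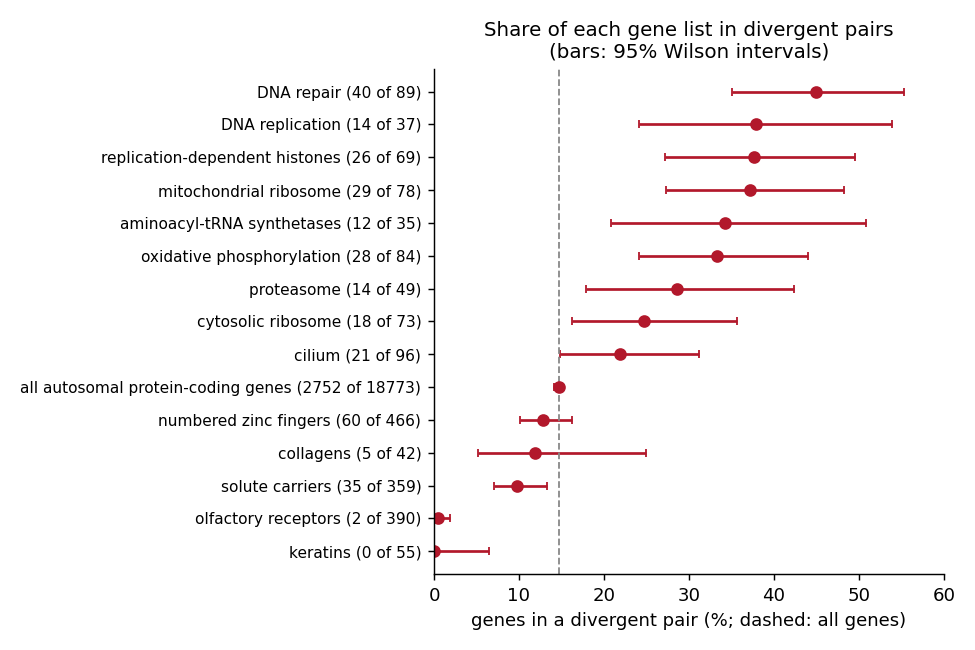
Percent of the genes of each list that lie in a divergent pair (points, with 95% Wilson intervals), with the share of all autosomal protein-coding genes as a dashed line at 14.7%. DNA repair genes stand highest at 44.9% (40 of 89), and olfactory receptors (2 of 390) and keratins (0 of 55) lowest.

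A shared hotspot, meaning one that reached the windows of both TSSs of a divergent combination, was missing at 82 pairs. In 32 of them (39.0%, 29.2 to 49.8) neither gene had a promoter hotspot, and in the other 50 at least 1 gene had one at another position. The closest pairs without one included genes of narrow use, such as MYL3/PTH1R, where MYL3 encodes a cardiac myosin light chain, PLCZ1/CAPZA3 of sperm, and NLRP7/NLRP2 of germ cells and early embryos, all without a promoter hotspot at either gene. DYDC1/DYDC2 and CIDEB/LTB4R had none at either gene as well. At CMPK2/RSAD2, a pair of interferon-induced genes, RSAD2 had a hotspot of 7.12 elsewhere. At PES1/TCN2 and SP110/SP140, whose closest TSSs are 0 and 1 bp apart, PES1, a factor of ribosome assembly, had a hotspot of 18.1 at another TSS and SP110 one of 22.2. DUS2 (9.45), paired with DPEP2NB, and CTNNA1 (22.4), the gene of alpha-catenin paired with LRRTM2, likewise had hotspots at other TSSs.

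The share of members among TSS hotspots ran from 3.98% on chromosome 21 to 12.1% on chromosome 14. On chromosome 20 and on chromosome 5 beyond 120 Mb, 37 and 27 members had median scores of 19.9 (14.3 to 28.1) and 28.6 (16.0 to 34.0), against 24.5 (23.3 to 25.5) for the 1387 members elsewhere.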

How the data were processed

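Open chromatin was measured by ATAC-seq in 5 libraries of MCF10A cells, sequenced with paired reads of 75 bases. The authors aligned them to hg38 with Bowtie2 (version not given in the sources used here for this alignment), merged the libraries, removed duplicates and called hotspots in the Hotspot software (false discovery rate 0.01, no input). A Tn5 shift is not mentioned in the sources used here. Their scripts drop mitochondrial reads for the coverage tracks, and whether the calls used those reads is not stated. The deposited list gives each hotspot a position and a score, whose scale is not stated. Because libraries were pooled the depth per library is unknown, no replicate error exists and no test was run.

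Members were found with Python 3 code (numpy, pandas, scipy, pysam) from TSSs of protein-coding transcripts in GENCODE release 44, 75507 on 22 autosomes. All transcripts had been planned. This set was taken after several were counted, because its number of genes equalled that of an earlier account of these data, and the set of all transcripts became an alternative. Members, gene lists and motifs were chosen with earlier results of these data known. The named pairs are the textbook pairs, the 10 highest, 5 lowest and 5 widest members, the 10 closest pairs without a hotspot, the 2 highest and 2 lowest of each gene list with up to 4 lacking a hotspot, and the 3 pairs on each side of 1000 bp. Histone pairs, OR11A1/OR2H1, UMAD1 and other partners, ZNF790, DNAI1 and pairs cited for a motif or for TATAAA go beyond this rule and were chosen after values were seen. So were the distance classes, the subclasses of other TSS hotspots, the counts by gene, the cover profile, the TATA window, the search for copies (50% of 25-base words shared with another TSS hotspot) and the sequences printed, since the planned rule (canonical TSSs) left few. Motifs were searched on both strands without mismatches. Some pairs that this rule names are not reported here. The code was tested on simulated data.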

Additional observations from a re-analysis of the deposited data

How the results depend on the processing

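In every alternative tried, members had the higher median score and the greater median width than the other TSS hotspots. With windows of 500 bp the median scores were 26.3 and 15.4, the widths 1096 and 713 bp, and 92.4% of pairs shared a hotspot. With windows of 2000 bp they were 20.7 and 8.34, 934.5 and 491 bp, and 95.6%. With one TSS per gene there were 942 members, with scores of 26.3 and 16.8, widths of 1081 and 771 bp, and 97.7% of pairs. Where a hotspot had to cover both TSSs the scores were 27.4 and 19.9, the widths 1154 and 912 bp, and the share 85.9%. Above the median score of the whole list they were 25.9 and 18.0, 1077 and 848 bp, and 92.0%. With TSSs of all transcripts, added after the data were seen, the other TSS hotspots had a median score of 8.62 and width of 507 bp, and 92.2% of pairs shared a hotspot. All other values stayed within the interval of the reported value, or within 1.5 times the reported count, also with TSSs at most 500 bp apart, without readthrough genes, without chromosome 20 and chromosome 5 beyond 120 Mb, and without the 5 near-identical copies (added after the data were seen). Motif shares of members and other TSS hotspots kept their order in windows of 120 bp, in whole hotspots and without those chromosomes, except ZNF143 at 120 bp (0.551% and 0.679%) and TEAD over whole hotspots (2.00% and 1.70%). AP-1 over whole hotspots, which are wider in members, was 9.99% and 11.4%. One list of pooled libraries cannot show how far any value would vary between cultures.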
